A study of Mus musculus with 16 samples.

Results

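The genes described here are 45 mouse genes of the lysosome: the hydrolases inside it, the proteins of its membrane, subunits of the pump that acidifies it, and a pair of regulators. They were taken by gene symbol from the probes of 16 one-colour arrays that measured RNA in sorted cells of the heart and blood. All 45 had at least 1 probe, with 62 probes between them. Of these genes, 43 were bright enough to be tested, among 22095 genes or unnamed features tested in all, 17590 of which had a symbol. The cathepsin genes Ctsk and Ctse were not tested, because their probes were well above background on 0 arrays.

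The lysosome is the acidic compartment in which a cell takes apart proteins, sugars and lipids that it has engulfed or recycled. Macrophages are rich in lysosomes because they clear dead cells and debris, and their cathepsins also trim antigens for display on MHC class II. A multi-subunit proton pump, the V-ATPase, keeps the compartment acidic, and the transcription factor TFEB binds short E-box motifs near the start of many lysosomal genes and activates them.

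Each of the 4 groups had 4 arrays, and all samples came from untreated mice of the C57BL/6 strain. Heart tissue was minced and digested, and live cells, which excluded DAPI, were sorted. All 3 macrophage groups were CD45+, MerTK+, CD64+ and Ly6c-negative. CCR2+ macrophages were also CCR2-high and MHCII-high. The MHCII-high macrophages lacked CCR2 and had low CD11c, while MHCII-low macrophages lacked both CCR2 and CD11c. Monocytes were the Ly6c-high cells of the blood, for which the labels give no further gate. Cells were collected in Trizol, and 1 ng of column-purified RNA per sample was labelled with Cy5 by the Kreatech ULS method. The age and sex of the mice are not given in the sources used here. It is not stated if the replicates of a group are from different mice, or if 1 mouse contributed to more than 1 group, so p-values measure only the spread between these samples, which may be technical. All macrophages came from digested heart and all monocytes from blood, so tissue, digestion and cell type cannot be told apart.

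Levels are given as the log2 of the array's processed signal with that array's 75th percentile set to 0, so they compare 1 gene across arrays and not 1 gene with another. Between 52.8% and 69.3% of the spots of an array were well above background. Each of the 4 slides carried 1 array of every group, and differences were tested in limma with the slide as a block. A gene was called at a Benjamini-Hochberg adjusted p under 0.05 over all genes tested in that comparison. The sorted markers followed the labels: Ccr2 in CCR2+ macrophages exceeded its level in the MHCII-high group by 3.86 ± 0.28 (SE) log2 units (adjusted p = 8.19e-05) and that in the MHCII-low group by 4.47 ± 0.28 (adjusted p = 8.29e-06). All 4 MHC class II genes looked at (H2-Aa, H2-Ab1, H2-Eb1 and Cd74) exceeded their MHCII-low level in MHCII-high macrophages, by 1.03 to 1.82. Of 8 tissue macrophage markers, 7 were higher in MHCII-low macrophages than in monocytes, 6 in MHCII-high and 7 in CCR2+ macrophages.

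Since TFEB acts on E-boxes close to the gene start, the sequence before the start is shown first for 4 genes. They were picked by name, and all 4 hold an E-box. RefSeq promoter sequences of GRCm38.p6, from 250 bases before to 50 bases after the start, were available for 38 of the 45 genes (not for Npc1, Ctsh, Asah1, Atp6v0d2, Atp6v1h, Ctsb and Ctse). The E-box CACGTG stood in 14 of the 38 (36.8%), against 8.09% of 27025 genes with a promoter window of the same length. The longer core TCACGTGA, which contains that E-box, stood in 6 of the 38 (15.8%), against 1.12%. The full palindromic CLEAR element, which contains both, stood in 0 of the 38, against 0.370%. All 3 motifs read the same on both strands. Below are the 150 bases before the start, 5′ to 3′ on the gene's strand, with the E-box in capitals and, where it lies within the longer core, the whole core in capitals.
Ctsd: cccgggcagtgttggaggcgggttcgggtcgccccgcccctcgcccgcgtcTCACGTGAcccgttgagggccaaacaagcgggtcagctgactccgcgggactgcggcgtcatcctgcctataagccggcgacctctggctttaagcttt
Mcoln1: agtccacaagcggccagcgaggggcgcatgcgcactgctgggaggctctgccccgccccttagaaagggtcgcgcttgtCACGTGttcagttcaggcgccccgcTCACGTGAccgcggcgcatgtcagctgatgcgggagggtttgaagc
Lamp1: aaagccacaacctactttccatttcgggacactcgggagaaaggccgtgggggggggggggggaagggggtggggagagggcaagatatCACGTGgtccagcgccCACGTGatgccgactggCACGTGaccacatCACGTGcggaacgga
Ctsf: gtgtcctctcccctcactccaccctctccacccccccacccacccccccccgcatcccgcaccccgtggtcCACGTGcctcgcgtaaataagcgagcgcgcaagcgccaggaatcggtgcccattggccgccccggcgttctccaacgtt

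The Ctsd window lies at chr7:142387828-142387977 on the minus strand, and the first base of its E-box is at -98 from the start. The Mcoln1 window lies at chr8:3500369-3500518 on the plus strand, with E-boxes at -71 and -45, the second of them inside the longer core. For Lamp1 the window is chr8:13159011-13159160 on the plus strand, with 4 E-boxes at -61, -45, -28 and -15. The single E-box of Ctsf, in chr19:4855015-4855164 on the plus strand, begins at -79. The longer core was also present for Atp6v0d1, Atp6v1a, Ctsa and Gla, and the E-box alone for Arsa, Ctsl, Gaa, Glb1, Lgmn and Naglu. A match describes these letters and does not show that a factor binds there.

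Lysosomal genes did not move as a block between blood monocytes and heart macrophages: several proteases, glycosidases and pump subunits were higher in the macrophages, while the lipid-handling genes Psap and Npc2 and cathepsin S were lower in all 3 groups, as was the pump subunit Atp6v0d1 in MHCII-high and CCR2+ macrophages. In MHCII-low macrophages 17 of the 43 genes tested were higher than in monocytes and 4 were lower, where 32.2% of all genes tested were called, 13.9% higher and 18.3% lower. In MHCII-high macrophages 15 were higher and 6 lower, against 31.7% of all genes called, 13.6% higher and 18.2% lower. In CCR2+ macrophages 14 were higher and 8 lower, against 33.8% of all genes called, 14.0% higher and 19.8% lower. The share of higher lysosomal genes was thus above that of all genes in each comparison, and the share of lower ones was below it in MHCII-low and MHCII-high macrophages and close to it in CCR2+ macrophages (18.6% against 19.8%). When the macrophage groups were averaged and set against monocytes, 16 of 43 were higher and 9 lower, against 38.4% of all genes called, 16.4% higher and 22.0% lower. The higher counts, here and by role below, include Atp6v0d2 in each group and Tpp1 in MHCII-low and MHCII-high macrophages. Both were well above background on 0 monocyte arrays and were kept only through the macrophages, so they could hardly be called lower.

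Genes whose arrays did not overlap were also counted. In MHCII-low macrophages the 4 arrays lay above all monocyte arrays for 13 of the 43 genes and below them for 5, against 10.4% and 12.7% of all genes. For MHCII-high macrophages these were 13 and 2, against 10.4% and 12.3%, and for CCR2+ macrophages 11 and 8, against 10.6% and 14.6%. The counts above monocytes include Atp6v0d2, which was kept only through the macrophages. The lower count in CCR2+ macrophages (8 of 43, 18.6%) was thus above the share of all genes.

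The larger differences leaned one way. By the fitted difference, more than 2-fold higher and called were 11, 10 and 8 of the 43 genes in MHCII-low, MHCII-high and CCR2+ macrophages (25.6%, 23.3% and 18.6%), against 8.33%, 8.56% and 8.22% of all genes. These counts include genes well above background on 0 monocyte arrays, Atp6v0d2 in each group and Tpp1 in MHCII-high macrophages. The bounds given below for Tpp1 in MHCII-high and Atp6v0d2 in CCR2+ macrophages are under 2-fold. More than 2-fold lower and called was 1 gene in MHCII-low macrophages (Psap) and 0 in the others, against 6.78%, 6.57% and 6.93%. The median difference of the 43 genes was 0.16, 0.23 and 0.05, and that of all genes was -0.06, -0.05 and -0.10. The 3 comparisons share the same 4 monocyte samples, so their counts are not independent. Every called difference of the 43 genes had the same sign on all 4 slides. Quantile normalization changed the split to 19 higher and 3 lower in MHCII-low, 20 and 2 in MHCII-high and 20 and 2 in CCR2+ macrophages. The calls lost under it were Ctss in MHCII-low, Ctss, Atp6v0d1, Idua and Laptm4a in MHCII-high and Ctss, Idua, Lamp1, Laptm4a, Laptm5 and Psap in CCR2+ macrophages. Calls gained under quantile normalization were Ctsz and Lamp2 in MHCII-low and Cd68, Ctsh, Ctsz, Lamp2 and Man2b1 in MHCII-high macrophages. In CCR2+ macrophages they were Cd68, Ctsb, Ctsh, Ctsz, Grn and Man2b1. Without the slide block the splits were 14 and 3, 12 and 2, and 11 and 6. That lost Cd68, Ids, Man2b1 and Tpp1 in MHCII-low, Atp6v0d1, Ctsb, Ctss, Grn, Idua, Laptm4a and Tpp1 in MHCII-high and Ctsc, Ctss, Gla, Hexa and Laptm5 in CCR2+ macrophages. Normexp, another background correction, lost Tpp1 in MHCII-low, Ctss, Idua, Laptm4a and Tpp1 in MHCII-high and Atp6v0d2, Ctss, Gla, Laptm5 and Mcoln1 in CCR2+ macrophages. It gained Lamp2 and Mcoln1 in MHCII-low, Ids, Lamp2 and Man2b1 in MHCII-high and Grn, Ids and Man2b1 in CCR2+ macrophages. For Mcoln1 normexp used the gene's other probe. The shares of all genes called under these alternatives are not given here, so their splits are not set against them.

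**Figure D1:**
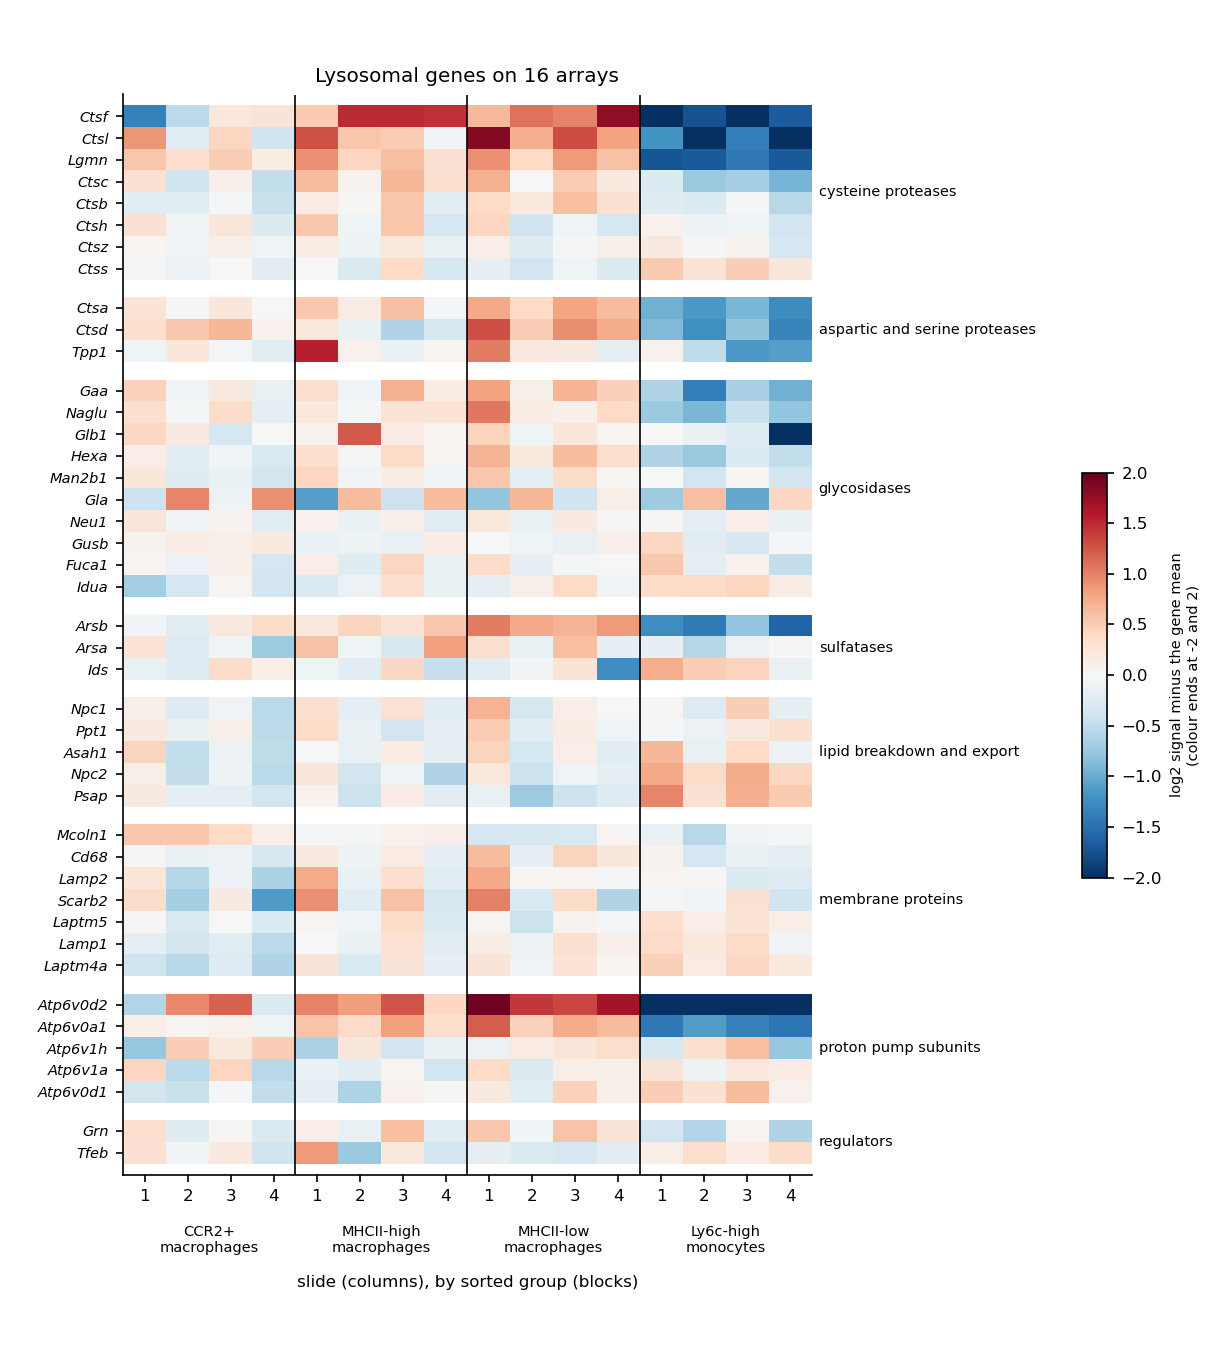
Log2 signal of the 43 lysosomal genes tested (rows, grouped by role) on the 16 arrays (columns, slides 1 to 4 within each sorted group), each gene with its mean over the arrays subtracted; colours end at -2 and 2. Ctsf, Ctsl, Lgmn, Atp6v0d2 and Atp6v0a1 are low on all 4 monocyte arrays, and Psap and Npc2 are high there.

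Markers of other heart cells also differed between macrophages and monocytes. The summed linear signal of 8 cardiomyocyte markers, with each array's 75th percentile as 1, was 20.7 to 31.9 in CCR2+, 26.3 to 39.9 in MHCII-high and 23.2 to 35.9 in MHCII-low macrophages, against 2.53 to 3.38 in monocytes, where Tnnt2, Actc1 and Mb were well above background on 0 of 4 arrays. For 7 endothelial markers it was 6.85 to 10.6, 5.73 to 9.82 and 5.75 to 8.69, against 2.08 to 4.43, and for the 4 fibroblast markers tested of 8 it was 3.78 to 10.4, 4.89 to 9.73 and 7.49 to 10.2, against 1.12 to 1.36. The summed erythroid markers ran the other way, at 11.9 to 49.8 in monocytes and 0.59 to 2.04 in macrophages. So did the sum of the 7 neutrophil markers tested of 10, at 4.58 to 5.66 against 0.71 to 1.91. Single neutrophil markers were split, with Mmp8 called lower in each group and S100a9 and Retnlg in CCR2+ macrophages. Mmp9 was called higher in MHCII-low and MHCII-high macrophages and Ly6g in CCR2+ macrophages. The 6 platelet markers summed to 14.6 to 18.9 in CCR2+, 28.7 to 40.8 in MHCII-high and 44.7 to 57.5 in MHCII-low macrophages, against 2.86 to 5.97 in monocytes. Of these 6, Pf4 alone was called higher in the macrophages. Ppbp was called lower in each group and Gp9 in MHCII-low and CCR2+ macrophages. The 6 T cell markers summed to 3.64 to 5.44, 8.18 to 10.2 and 6.11 to 8.45, against 2.30 to 4.55, with Cd4 called higher and Cd3g lower in each group. Cd3e was also called lower in MHCII-high macrophages. Their part in the lysosomal differences was not tested. In bulk samples such as these, fewer cells of a type and less RNA per cell cannot be told apart.

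**Figure D2:**
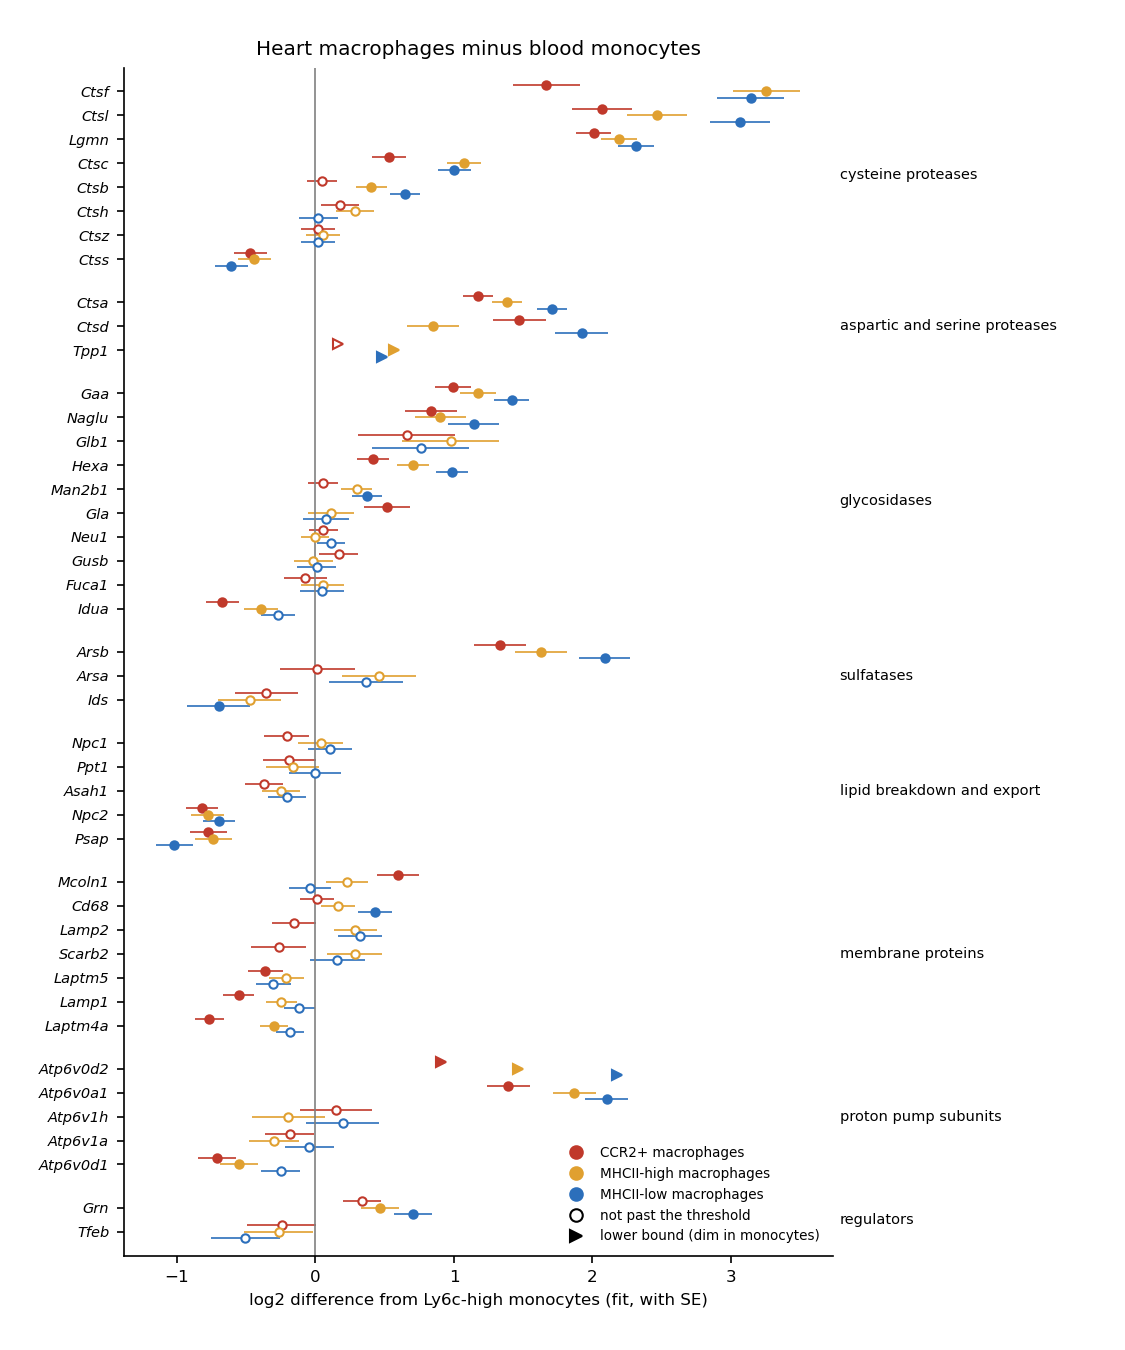
Difference from Ly6c-high monocytes on the log2 scale (horizontal axis, with standard errors) for each lysosomal gene (vertical axis, by role) in MHCII-low, MHCII-high and CCR2+ macrophages, with filled symbols for called differences and triangles for lower bounds. The proteases Ctsf, Ctsl and Lgmn lie furthest right of the genes with a measured difference, and Psap lies left of 0 in all 3 groups.

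Among cysteine proteases, the family that includes most cathepsins, 5 of 8 genes were higher and 1 was lower in MHCII-low macrophages. The same numbers, 5 and 1, applied in MHCII-high macrophages, and 4 and 1 in CCR2+ macrophages. Of all genes, 13.9% were higher and 18.3% lower in MHCII-low, 13.6% and 18.2% in MHCII-high and 14.0% and 19.8% in CCR2+ macrophages. These shares also serve for the role groups that follow. Legumain (Lgmn, chr12:102394082-102439728), an endopeptidase that cuts after asparagine and helps to mature other cathepsins, read 2.00, 2.05, 2.30 and 2.06 on the 4 monocyte arrays. It read 4.64, 4.13, 4.58 and 4.32 in MHCII-low, 4.64, 4.16, 4.33 and 4.04 in MHCII-high and 4.28, 4.07, 4.22 and 3.87 in CCR2+ macrophages. The monocyte arrays lay below every macrophage array, whereas the macrophage groups overlapped. The difference from monocytes was 2.31 ± 0.13 (SE) in MHCII-low (adjusted p = 1.11e-07), 2.19 ± 0.13 in MHCII-high (adjusted p = 1.84e-07) and 2.01 ± 0.13 in CCR2+ macrophages (adjusted p = 5.48e-07).

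Cathepsin L (Ctsl, chr13:64361890-64370772), an endopeptidase, was at -1.21, -2.97, -1.40 and -2.07 in monocytes. The values were 1.82, 0.71, 1.29 and 0.79 in MHCII-low, 1.26, 0.54, 0.50 and -0.10 in MHCII-high and 0.88, -0.23, 0.42 and -0.42 in CCR2+ macrophages. All 12 macrophage arrays exceeded the monocyte arrays, and the MHCII-low and CCR2+ groups overlapped in part. The gene was 3.07 ± 0.22 (adjusted p = 7.76e-07), 2.46 ± 0.22 (adjusted p = 5.03e-06) and 2.07 ± 0.22 (adjusted p = 2.45e-05) above monocytes in MHCII-low, MHCII-high and CCR2+ macrophages.

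Cathepsin F (Ctsf, chr19:4855165-4860918), another papain-like protease, gave -1.46, -0.97, -1.67 and -0.91 in monocytes. CCR2+ macrophages gave -0.59, 0.25, 0.98 and 1.03, MHCII-high macrophages 1.29, 2.26, 2.25 and 2.22, and MHCII-low macrophages 1.41, 1.86, 1.76 and 2.54. CCR2+ macrophages therefore stood between the monocytes and both other macrophage groups, with no overlap on either side. The differences from monocytes were 3.14 ± 0.24 in MHCII-low (adjusted p = 1.68e-06), 3.26 ± 0.24 in MHCII-high (adjusted p = 1.35e-06) and 1.67 ± 0.24 in CCR2+ macrophages (adjusted p = 0.000269).

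Cathepsin C (Ctsc, chr7:88278024-88315861), a dipeptidyl peptidase that activates granule proteases, read 3.12, 2.65, 2.73 and 2.46 in monocytes. It read 4.10, 3.39, 3.90 and 3.58 in MHCII-low, 4.02, 3.46, 4.05 and 3.71 in MHCII-high and 3.70, 2.99, 3.50 and 2.89 in CCR2+ macrophages. The first macrophage pair lay above all monocyte arrays and CCR2+ macrophages overlapped them. Ctsc was higher than in monocytes by 1.00 ± 0.12 in MHCII-low (adjusted p = 6.32e-05), 1.07 ± 0.12 in MHCII-high (adjusted p = 4.03e-05) and 0.53 ± 0.12 in CCR2+ macrophages (adjusted p = 0.00559). Its other kept probe gave 2.55, 2.48 and 2.14, so the direction was shared and the size was not.

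Cathepsin B (Ctsb), a broadly acting endopeptidase and exopeptidase, was higher by 0.65 ± 0.11 in MHCII-low (adjusted p = 0.000772) and 0.40 ± 0.11 in MHCII-high macrophages (adjusted p = 0.0147), and differed by 0.05 in CCR2+ macrophages (adjusted p = 0.775). Cathepsin S (Ctss), which degrades the invariant chain on the way to antigen display, was lower in all 3 groups, by -0.61 ± 0.12 in MHCII-low (adjusted p = 0.00202), -0.44 ± 0.12 in MHCII-high (adjusted p = 0.0139) and -0.47 ± 0.12 in CCR2+ macrophages (adjusted p = 0.00965). The MHCII-high call of Ctss was lost without array 2 or 4 of that group, with an adjusted p of at most 0.0557, and quantile normalization turned its CCR2+ difference to 0.038. Ctsh and Ctsz, an aminopeptidase and a carboxypeptidase, passed no comparison with monocytes. Under quantile normalization, however, Ctsz was called in all 3 groups and Ctsh in MHCII-high and CCR2+ macrophages.

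Of the aspartic and serine proteases, 3 of 3 tested were higher in MHCII-low and MHCII-high and 2 of 3 in CCR2+ macrophages. Cathepsin D (Ctsd, chr7:142375910-142387827), the main aspartic protease of the lysosome, whose promoter carries the longer core shown above, read 2.12, 1.77, 2.19 and 1.68 in monocytes. Its levels were 4.29, 3.49, 3.92 and 3.74 in MHCII-low, 3.21, 2.87, 2.40 and 2.68 in MHCII-high and 3.34, 3.55, 3.67 and 3.09 in CCR2+ macrophages. All macrophage arrays lay above the monocytes, and every MHCII-high array lay below every MHCII-low array. Differences from monocytes were 1.92 ± 0.19 (adjusted p = 1.26e-05), 0.85 ± 0.19 (adjusted p = 0.0047) and 1.47 ± 0.19 (adjusted p = 0.000112) in that order.

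Cathepsin A (Ctsa), a serine carboxypeptidase that also protects beta-galactosidase and neuraminidase, was higher by 1.71 ± 0.11 in MHCII-low (adjusted p = 3.44e-07), 1.38 ± 0.11 in MHCII-high (adjusted p = 1.95e-06) and 1.17 ± 0.11 in CCR2+ macrophages (adjusted p = 1.01e-05). Tripeptidyl peptidase (Tpp1) was well above background on 0 of 4 monocyte arrays, so only bounds are given, computed against the dimmest signal called above background. It was at least 1.40-fold higher in MHCII-low (measured means -2.58 against -3.55, adjusted p = 0.0109) and at least 1.48-fold higher in MHCII-high cells (measured mean -2.50, adjusted p = 0.00669), and missed the threshold in CCR2+ macrophages (adjusted p = 0.0674). With normexp the Tpp1 difference was -0.10 in MHCII-low (adjusted p = 0.747) and 0.030 in MHCII-high macrophages (adjusted p = 0.936), so both calls depended on the background correction.

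Glycosidases remove sugars from glycoproteins, glycolipids and glycogen. Of the 10 tested, 4, 3 and 4 were higher in MHCII-low, MHCII-high and CCR2+ macrophages, and 0, 1 and 1 were lower. Acid alpha-glucosidase (Gaa), which breaks down glycogen, was higher by 1.42 ± 0.13 (adjusted p = 5.96e-06), 1.17 ± 0.13 (adjusted p = 2.91e-05) and 0.99 ± 0.13 (adjusted p = 0.000112). Naglu, which acts on heparan sulfate, was higher by 1.14 ± 0.18 (adjusted p = 0.000515), 0.90 ± 0.18 (adjusted p = 0.00259) and 0.83 ± 0.18 (adjusted p = 0.00436). Hexa, the alpha subunit of beta-hexosaminidase, was higher by 0.98 ± 0.12 (adjusted p = 4.79e-05), 0.70 ± 0.12 (adjusted p = 0.000607) and 0.41 ± 0.12 (adjusted p = 0.0164). A further probe of Gaa gave -1.15 in CCR2+ macrophages, so its size and direction there depend on the probe.

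The other glycosidase calls were small and most were lost when single arrays were left out. Man2b1, a mannosidase, was higher by 0.37 in MHCII-low macrophages (adjusted p = 0.0215), which was lost without monocyte array 1 or 4 or MHCII-low array 1, 3 or 4 (adjusted p at most 0.0665). Gla, alpha-galactosidase A, was higher by 0.52 in CCR2+ macrophages (adjusted p = 0.0334), which held only without monocyte array 1 (adjusted p otherwise at most 0.103). The CCR2+ call of Hexa was lost without array 1 or 2 of that group, with an adjusted p of at most 0.0600. Idua, which acts on dermatan and heparan sulfate, was lower by -0.39 in MHCII-high (adjusted p = 0.0279) and -0.67 in CCR2+ macrophages (adjusted p = 0.00124), and the former was lost without monocyte array 1 or 2 or MHCII-high array 1, 2 or 4 (adjusted p at most 0.0859). Its other kept probe went the other way, with 0.98, 0.81 and 0.74 in MHCII-low, MHCII-high and CCR2+ macrophages, so its direction is uncertain. Glb1, beta-galactosidase, was called only for the mean of the macrophage groups (0.80 ± 0.28, adjusted p = 0.0445). Its monocyte arrays read -0.27, -0.41, -0.53 and -2.27, and without the last of these the difference was 0.39 (adjusted p = 0.231). The Glb1 call was lost without any 1 of 11 of the 16 arrays. Neu1, Gusb and Fuca1 were called in no comparison with monocytes.

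Of the 3 sulfatases, which remove sulfate from glycosaminoglycans and sulfatides, Arsb was higher in every macrophage group. It read 0.73, 0.55, 1.19 and 0.37 in monocytes, against 2.99, 2.73, 2.65 and 2.82 in MHCII-low, 2.19, 2.41, 2.25 and 2.51 in MHCII-high and 1.91, 1.75, 2.17 and 2.34 in CCR2+ macrophages. No macrophage array reached down to the monocytes. The differences were 2.09 ± 0.19 (adjusted p = 5.21e-06), 1.63 ± 0.19 (adjusted p = 4e-05) and 1.33 ± 0.19 (adjusted p = 0.000197). Iduronate-2-sulfatase (Ids, chrX:70343069-70385834) was at -0.94, -1.16, -1.21 and -1.81 in monocytes and -1.88, -1.72, -1.41 and -2.90 in MHCII-low macrophages. In MHCII-high macrophages Ids gave -1.74, -1.89, -1.25 and -2.12, and in CCR2+ macrophages -1.79, -1.92, -1.30 and -1.53. All 4 groups overlapped. It was lower in MHCII-low macrophages by -0.70 ± 0.23 (adjusted p = 0.0347), a call lost without monocyte array 1, 2 or 4 or MHCII-low array 1 or 4 (adjusted p at most 0.121). Arsa passed no comparison with monocytes.

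**Figure D3:**
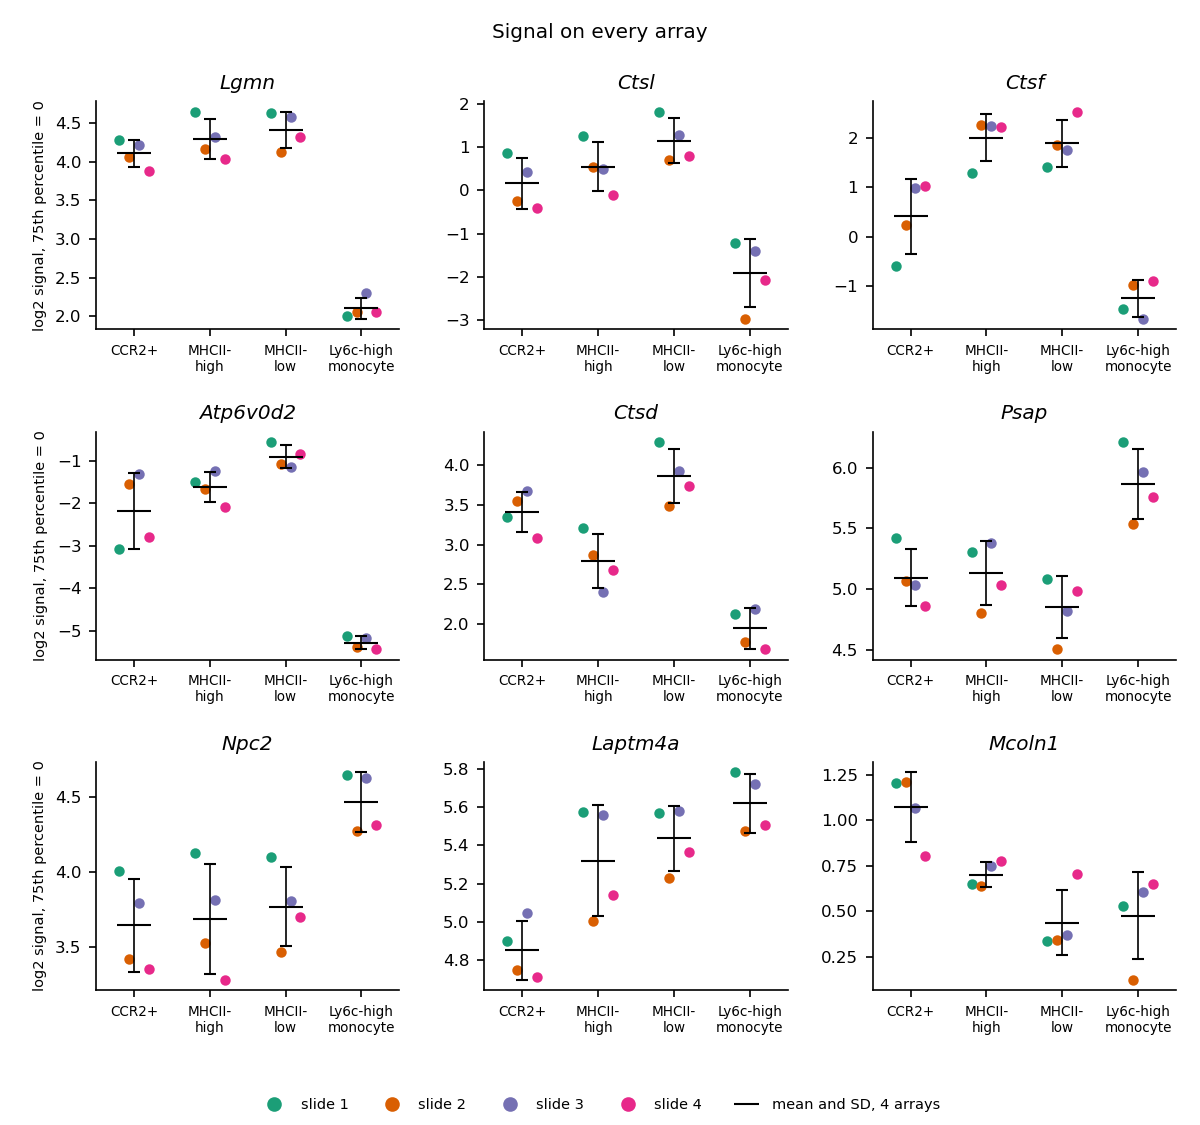
Log2 signal (vertical axis, 75th percentile of the array = 0) of 9 lysosomal genes on every array, by sorted group (horizontal axis) and slide (colour), with the mean and SD of 4 arrays. Lgmn, Ctsl, Ctsf, Atp6v0d2 and Ctsd lie higher in the macrophage groups than in monocytes without overlap, and Psap and Npc2 lie lower.

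Of the genes for lipid breakdown and export, 2 of 5 were lower in each macrophage group and 0 were higher. Of all genes, 18.3%, 18.2% and 19.8% were lower in MHCII-low, MHCII-high and CCR2+ macrophages, and 13.9%, 13.6% and 14.0% higher. The 40% called in each group compares with 32.2%, 31.7% and 33.8% of all genes. Psap (chr10:60277628-60302600), the precursor of the saposins that present sphingolipids to their hydrolases, read 6.21, 5.54, 5.96 and 5.75 in monocytes. It read 5.08, 4.50, 4.82 and 4.98 in MHCII-low, 5.31, 4.80, 5.38 and 5.03 in MHCII-high and 5.42, 5.06, 5.03 and 4.86 in CCR2+ macrophages, and no macrophage array reached the lowest monocyte array. Psap was lower by -1.02 ± 0.13 (adjusted p = 0.000101), -0.74 ± 0.13 (adjusted p = 0.00109) and -0.77 ± 0.13 (adjusted p = 0.000826) in these groups. Under quantile normalization the CCR2+ difference was -0.26 and was not called (adjusted p = 0.142).

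Npc2 (chr12:84754559-84773112), a soluble carrier that hands cholesterol to the exporter NPC1, read 4.65, 4.28, 4.63 and 4.31 in monocytes. The values were 4.10, 3.47, 3.80 and 3.70 in MHCII-low, 4.13, 3.52, 3.81 and 3.28 in MHCII-high and 4.01, 3.42, 3.79 and 3.36 in CCR2+ macrophages, again all below the monocytes. The decrease was -0.70 ± 0.12 (adjusted p = 0.000638), -0.78 ± 0.12 (adjusted p = 0.000293) and -0.82 ± 0.12 (adjusted p = 0.00021). Npc1 itself, the thioesterase Ppt1 and the ceramidase Asah1 were not called in these comparisons.

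Of the membrane proteins, 1 of 7 was higher and 0 lower in MHCII-low macrophages, 0 and 1 in MHCII-high and 1 and 3 in CCR2+ macrophages, where 32.2%, 31.7% and 33.8% of all genes were called. Cd68 (chr11:69664213-69666170), a glycoprotein used as a macrophage marker, read 4.43, 4.02, 4.24 and 4.18 in monocytes and 5.0, 4.20, 4.81 and 4.59 in MHCII-low macrophages. MHCII-high macrophages gave 4.55, 4.27, 4.53 and 4.18, and CCR2+ macrophages 4.39, 4.22, 4.25 and 4.05, so the groups overlapped. The gene was higher in MHCII-low macrophages by 0.43 ± 0.12 (adjusted p = 0.0193). The call was lost without monocyte array 3 or without array 1, 3 or 4 of the MHCII-low group (adjusted p at most 0.0643).

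Lamp1 (chr8:13159161-13175338), a heavily glycosylated protein that lines the lysosomal membrane and whose promoter holds 4 E-boxes, read 5.99, 5.82, 5.99 and 5.56 in monocytes and 5.44, 5.24, 5.39 and 5.08 in CCR2+ macrophages. Its levels were 5.75, 5.51, 5.93 and 5.71 in MHCII-low and 5.60, 5.47, 5.91 and 5.40 in MHCII-high macrophages, which overlapped the monocytes, whereas all CCR2+ arrays lay below them. The difference in CCR2+ macrophages was -0.55 ± 0.11 (adjusted p = 0.00253), with -0.12 in MHCII-low and -0.25 in MHCII-high macrophages, neither called. Under quantile normalization the CCR2+ difference was 0.00049, so its direction depended on the scaling.

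Laptm4a (chr12:8921307-8938742), a membrane protein of late endosomes and lysosomes, read 5.78, 5.47, 5.72 and 5.50 in monocytes and 4.90, 4.75, 5.05 and 4.71 in CCR2+ macrophages. It read 5.57, 5.23, 5.58 and 5.36 in MHCII-low and 5.57, 5.01, 5.56 and 5.14 in MHCII-high macrophages. CCR2+ macrophages lay below all monocyte and MHCII-low arrays. The difference from monocytes was -0.77 ± 0.10 in CCR2+ (adjusted p = 0.000157) and -0.30 ± 0.10 in MHCII-high macrophages (adjusted p = 0.0464). The MHCII-high call held only without array 1 of that group (adjusted p otherwise at most 0.154), and quantile normalization gave 0.076 there. Its relative Laptm5, enriched in blood cells, was lower in CCR2+ macrophages by -0.36 (adjusted p = 0.043). That call held only without monocyte array 3 (adjusted p otherwise at most 0.113), and quantile normalization gave 0.17.

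Mcoln1 (chr8:3500519-3515232), the calcium channel TRPML1, whose promoter carries the longer core, was higher in CCR2+ macrophages than in monocytes on its brightest probe. It read 1.20, 1.21, 1.07 and 0.80 there, against 0.53, 0.12, 0.60 and 0.65 in monocytes, 0.33, 0.34, 0.37 and 0.70 in MHCII-low and 0.65, 0.64, 0.75 and 0.77 in MHCII-high macrophages. The CCR2+ arrays were above all others. The difference from monocytes was 0.60 ± 0.15 (adjusted p = 0.00994). The gene's other kept probe gave 0.65 in MHCII-low, 0.60 in MHCII-high and 0.25 in CCR2+ macrophages. With normexp that other probe was the one used, and the CCR2+ difference was 0.13 and was not called (adjusted p = 0.630). Lamp2 and Scarb2, which carry proteins and lipids across or to the lysosome, were not called against monocytes.

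Subunits of the proton pump went both ways, with 2 of 5 higher in each macrophage group and 0, 1 and 1 lower in MHCII-low, MHCII-high and CCR2+ macrophages. The shares called of these 5 genes, 40%, 60% and 60%, compare with 32.2%, 31.7% and 33.8% of all genes, which also went both ways. Atp6v0d2 (chr4:19876838-19922566), the d2 form of the pump's membrane sector, known from osteoclasts and macrophages, was well above background on 0 of 4 monocyte arrays. Its signals there were -5.12, -5.38, -5.17 and -5.43. They were -0.56, -1.08, -1.15 and -0.83 in MHCII-low, -1.51, -1.65, -1.25 and -2.08 in MHCII-high and -3.08, -1.53, -1.31 and -2.79 in CCR2+ macrophages. Every macrophage array was above the monocytes, and the CCR2+ arrays spread widest (SD 0.89, where it was 0.35 for the MHCII-high and 0.27 for the MHCII-low arrays). Against monocytes Atp6v0d2 was at least 4.52-fold higher in MHCII-low (adjusted p = 1.37e-06), at least 2.75-fold higher in MHCII-high (adjusted p = 6.46e-06) and at least 1.87-fold above them in CCR2+ cells (adjusted p = 2.87e-05). With normexp the CCR2+ difference was 0.62 on the log2 scale and was not called (adjusted p = 0.0942).

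The partner form Atp6v0d1 (chr8:105524461-105566064), found in most tissues, ran the other way. It read 2.49, 2.31, 2.63 and 2.08 in monocytes, against 2.17, 1.77, 2.45 and 2.10 in MHCII-low, 1.80, 1.39, 2.08 and 2.03 in MHCII-high and 1.63, 1.56, 1.97 and 1.51 in CCR2+ macrophages. MHCII-low macrophages overlapped the monocytes, the highest MHCII-high array equalled the lowest monocyte array to 2 decimals, and CCR2+ macrophages lay below. Atp6v0d1 was lower by -0.55 ± 0.14 in the MHCII-high group (adjusted p = 0.00927) and -0.71 ± 0.14 in CCR2+ macrophages (adjusted p = 0.00199).

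Atp6v0a1, the a1 form of the large membrane subunit, read 1.11, 1.42, 1.18 and 1.07 in monocytes. It read 3.74, 3.00, 3.28 and 3.16 in MHCII-low, 3.10, 2.91, 3.35 and 2.88 in MHCII-high and 2.67, 2.57, 2.62 and 2.47 in CCR2+ macrophages, in each case with no overlap. The differences were 2.10 ± 0.16 (adjusted p = 1.1e-06), 1.87 ± 0.16 (adjusted p = 3.08e-06) and 1.39 ± 0.16 (adjusted p = 3.93e-05). The gene's other kept probe gave 0.64, 0.71 and 0.59. Atp6v1a and Atp6v1h, of the ATP-cleaving sector, were not called.

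Of the regulators, progranulin (Grn), whose cleavage products support lysosomal enzymes, was higher by 0.70 ± 0.14 in MHCII-low (adjusted p = 0.00206) and 0.47 ± 0.14 in MHCII-high macrophages (adjusted p = 0.0229), with 0.33 in CCR2+ macrophages (adjusted p = 0.086). The MHCII-high call of Grn was lost without monocyte array 1 or 4 or MHCII-high array 2 or 3 (adjusted p at most 0.0788). Tfeb (chr17:47737037-47792416), the factor named above, read 0.56, 0.78, 0.59 and 0.79 in monocytes, 0.26, 0.15, 0.10 and 0.19 in MHCII-low, 1.28, -0.31, 0.62 and 0.07 in MHCII-high and 0.73, 0.37, 0.62 and 0.03 in CCR2+ macrophages. MHCII-low arrays lay below all monocyte arrays, and the other groups overlapped them. Tfeb was called in no comparison, and its difference in MHCII-low macrophages was -0.51 (adjusted p = 0.15).

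Genes with and without an E-box in the promoter window were both found among the higher genes. Of 14 tested genes with the E-box, 7 were higher and 0 lower in MHCII-low, 7 and 1 in MHCII-high and 9 and 2 in CCR2+ macrophages. Of 23 tested genes with a window but no E-box, 8 were higher and 4 lower, 6 and 5, and 4 and 6. Of all genes tested 13.9% were higher and 18.3% lower, 13.6% and 18.2%, and 14.0% and 19.8%. These are counts over genes that share the same arrays and were not tested.

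Among the macrophages, CCR2+ cells had lower levels of several lysosomal genes than MHCII-low cells, and fewer differences from MHCII-high cells. Against MHCII-low macrophages 11 of 43 genes were lower and 1, Mcoln1, was higher in CCR2+ macrophages, where 5.76% of all genes tested were called, 2.91% lower and 2.85% higher. Against MHCII-high macrophages 3 were lower and 0 higher, where 2.51% of all genes were called, 1.26% lower and 1.25% higher. The CCR2+ arrays lay below all MHCII-low arrays for 9 genes and above them for 1, against 4.01% and 4.26% of all genes, and below all MHCII-high arrays for 2 and above them for 1, against 4.64% and 3.18%. In both comparisons 9 of the 43 genes had a difference above 0 (20.9%), against 46.3% of all genes for MHCII-high and 45.2% for MHCII-low macrophages. The median difference of the 43 genes was -0.16 against MHCII-high and -0.32 against MHCII-low macrophages, and that of all genes was -0.03 and -0.04.

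The order of the group means comes from the same arrays, so it restates these differences and adds no separate support. The mean was highest in MHCII-low, next in MHCII-high and lowest in CCR2+ macrophages for 22 of the 43 genes (51.2%), against 21.5% of all genes, and in the reverse order for 4 (9.30%), against 18.2%. Between neighbours in that order, the calls were those just given for CCR2+ and MHCII-high macrophages and Ctsd alone between MHCII-high and MHCII-low macrophages. Markers of other heart cells gave 0 calls between macrophage groups for cardiomyocytes and endothelium, and 1 of 4 fibroblast genes was lower in CCR2+ than in MHCII-low macrophages. The platelet marker sums given above did not overlap between the macrophage groups and were lowest in CCR2+ and highest in MHCII-low macrophages. Of the 6, Pf4 alone was called, lower in CCR2+ than in MHCII-low macrophages by -1.65 (adjusted p = 0.0183). The T cell sums were also lowest in CCR2+ macrophages, without overlap, and of those 6 genes Cd4 alone was called, by -1.40 against MHCII-high (adjusted p = 0.0182) and -1.05 against MHCII-low macrophages (adjusted p = 0.0412). Of 7 neutrophil markers Mmp9 was lower in CCR2+ macrophages than in both. Of 8 tissue macrophage markers, C1qc, Mrc1 and Csf1r were lower in CCR2+ than in MHCII-low macrophages, with sums of 304.8 to 419.1 in CCR2+, 377.2 to 545.3 in MHCII-high and 392.2 to 592.7 in MHCII-low macrophages. Of 7 monocyte markers tested, Ccr2, Ly6c1 and Plac8 were higher in CCR2+ than in either other group and Chil3 than in MHCII-low macrophages, while F13a1 was lower than in both. The summed signal of these 7 was 12.3 to 33.3 in CCR2+, 16.4 to 25.8 in MHCII-high and 23.3 to 32.5 in MHCII-low macrophages, against 167 to 226 in monocytes. The part of these markers in the lysosomal calls was not tested.

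**Figure D4:**
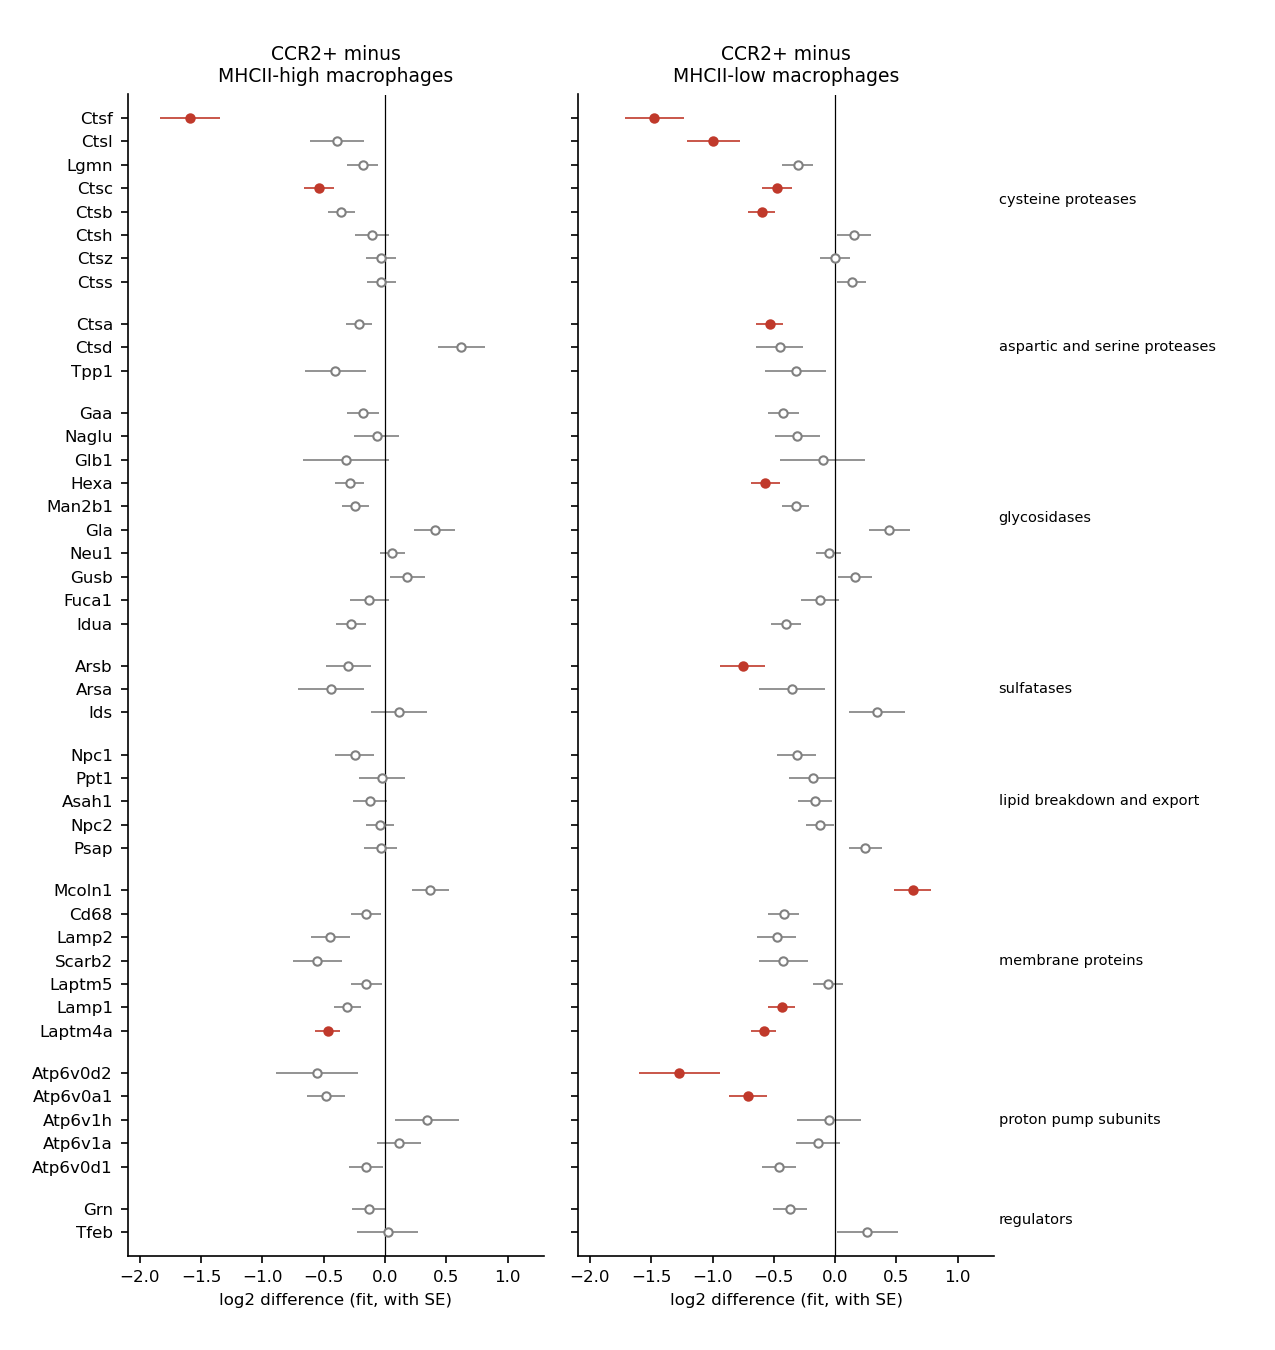
Difference of CCR2+ macrophages from MHCII-high and from MHCII-low macrophages on the log2 scale (horizontal axis, with standard errors) for the lysosomal genes (vertical axis), with filled symbols for called differences. Most genes lie left of 0, Ctsf furthest among the called genes, and Mcoln1 lies to the right against MHCII-low macrophages.

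Ctsf was the gene with the largest called decrease in CCR2+ macrophages in both comparisons, by -1.59 ± 0.24 against MHCII-high (adjusted p = 0.00546) and -1.47 ± 0.24 against MHCII-low macrophages (adjusted p = 0.0042). On its 4 arrays of each group, given above, CCR2+ macrophages overlapped neither group. It was called against MHCII-high macrophages whichever array was left out, with differences of -1.81 to -1.41. The other 2 genes lower than in MHCII-high macrophages, Ctsc (-0.54, adjusted p = 0.0423) and Laptm4a (-0.47, adjusted p = 0.038), lost the call whichever of the 8 arrays was left out, at adjusted p of 0.0622 to 0.140 and 0.0595 to 0.135.

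Against MHCII-low macrophages the lower genes included 4 of 8 cysteine proteases: Ctsf, Ctsl (-0.99 ± 0.22, adjusted p = 0.02), Ctsb (-0.60 ± 0.11, adjusted p = 0.00811) and Ctsc (-0.47 ± 0.12, adjusted p = 0.0459). The serine protease Ctsa was lower by -0.53 ± 0.11 (adjusted p = 0.014), the glycosidase Hexa by -0.57 ± 0.12 (adjusted p = 0.0138) and the sulfatase Arsb by -0.76 ± 0.19 (adjusted p = 0.0366). The pump subunits that were higher in macrophages than in monocytes were lower here, Atp6v0d2 by -1.27 ± 0.33 (adjusted p = 0.0464) and Atp6v0a1 by -0.71 ± 0.16 (adjusted p = 0.0199). The other kept probes gave smaller differences, -0.11 for Ctsa and -0.047 for Atp6v0a1. The membrane proteins Laptm4a and Lamp1 were lower by -0.58 ± 0.10 (adjusted p = 0.00656) and -0.44 ± 0.11 (adjusted p = 0.0434), and 0 of 5 lipid-handling genes was called.

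Ctsf, Ctsb and Laptm4a kept the call whichever of the 8 arrays was left out, and Ctsc and Lamp1 lost it in each case (adjusted p up to 0.147 and 0.153). Ctsa was lost without CCR2+ array 3 or MHCII-low array 4 (at most 0.0621), and Hexa without CCR2+ array 3 or 4 (at most 0.0590). Atp6v0d2 was lost without CCR2+ array 1 or 4 or MHCII-low array 1, 2 or 4 (at most 0.153). Atp6v0a1 was lost without any CCR2+ array or MHCII-low array 1 or 4 (at most 0.0666), and Ctsl without CCR2+ array 1, 3 or 4 or MHCII-low array 2, 3 or 4 (at most 0.0695). Arsb was lost without CCR2+ array 1, 2 or 3 or MHCII-low array 1, 2 or 4 (at most 0.118). With the mean of a gene's probes Ctsa (-0.32, adjusted p = 0.191) and Atp6v0a1 (-0.38, adjusted p = 0.0770) were not called. Ctsa was also lost with normexp (-0.47, adjusted p = 0.0650) and quantile normalization (-0.31, adjusted p = 0.121). Quantile normalization further lost Atp6v0d2, Ctsc and Lamp1, and median scaling lost Arsb, Atp6v0a1, Atp6v0d2, Ctsc, Hexa and Lamp1. Without 1 array, 4 to 8 of the 43 genes were called in place of 12. Without the slide block 1 gene was called in this comparison and 1 against MHCII-high macrophages.

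Mcoln1 was higher in CCR2+ than in MHCII-low macrophages by 0.63 ± 0.15 (adjusted p = 0.0315), lost without array 1, 2 or 3 of either group (adjusted p at most 0.110). This rests on 1 of the gene's probes: the other kept probe gave -0.40 in this comparison and -0.35 against MHCII-high macrophages. Under normexp that other probe became the brighter and the difference was -0.47, so the direction of Mcoln1 among macrophages is uncertain.

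The MHCII-high and MHCII-low macrophages, both gated as CCR2-negative, differed in 1 lysosomal gene. Ctsd was lower in the MHCII-high cells by -1.07 ± 0.19 (adjusted p = 0.0406), and its second probe gave -0.92. That was 1 of 43 lower and 0 higher, where 0.348% of all genes were called, 0.122% lower and 0.226% higher. The MHCII-high arrays lay below all MHCII-low arrays for 3 of the 43 genes and above them for 0, against 1.18% and 1.16% of all genes. The Ctsd difference was -1.20 to -0.88 without each array in turn, and the call was lost in all 8 cases (adjusted p 0.0621 to 0.156). Of the 43 genes, 16 had a difference above 0 (37.2%), against 50.4% of all genes, and the median was -0.08.

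Lysosomal genes also rose and fell together from slide to slide. A slide effect was called for 20 of 43, against 37.6% of all genes. That this set follows the slides was known beforehand from these data, and slides 1 and 3 were set against slides 2 and 4 with that known. The counts by that split describe the pattern and do not test it. On the 8 arrays of slides 1 and 3, 29 to 38 of the 43 genes were above their group mean, with a median deviation of 0.0852 to 0.221, and on the 8 arrays of slides 2 and 4 only 4 to 12 were, with a median deviation of -0.256 to -0.0671. Averaged over groups, 32 genes (74.4%) were above on slides 1 and 3 and below on slides 2 and 4, against 25.2% of all genes. The opposite pattern held for 1 gene (2.33%), against 33.7%. The share of spots well above background ran the other way, at 52.8% to 62.4% on slides 1 and 3 and 58.2% to 69.3% on slides 2 and 4, and its part in the pattern was not tested. With quantile normalization the pattern held for 27 genes against 25.7% of all genes, with median scaling for 36 against 38.7%, and with normexp for 25 against 25.6%.

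**Figure D5:**
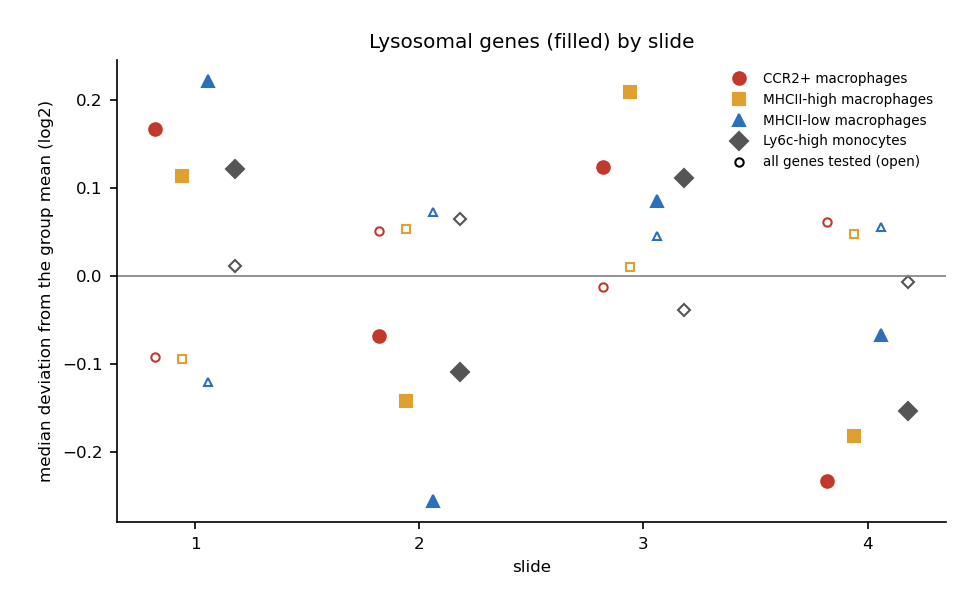
Median deviation from the group mean (vertical axis, log2) on each slide (horizontal axis) in the 4 sorted groups, for the 43 lysosomal genes (filled symbols) and for all genes tested (open symbols). The filled symbols lie above 0 on slides 1 and 3 and below 0 on slides 2 and 4 in all 4 groups.

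Other genes of the lysosome, from a second list of enzymes outside the 45, changed in both directions. Of 27 such enzymes 10 were higher and 7 lower in MHCII-low, 10 and 7 in MHCII-high and 9 and 8 in CCR2+ macrophages. Of all genes 13.9% were higher and 18.3% lower, 13.6% and 18.2%, and 14.0% and 19.8% in these comparisons, which also serve for the lists that follow. The carboxypeptidase Cpq was higher by 2.69 ± 0.29 (adjusted p = 2.57e-05), 2.60 (adjusted p = 3.47e-05) and 2.44 (adjusted p = 6.37e-05) in these groups, although only 1 of 4 monocyte arrays measured it well above background. The dipeptidyl peptidase Dpp7 was higher by 2.15 (adjusted p = 7.37e-07) and 1.67 (adjusted p = 6.24e-06) in the first 2. Acp5, the tartrate-resistant phosphatase, was higher in CCR2+ macrophages by 1.86 (adjusted p = 0.000973). The phospholipase-like Plbd1 was lower in MHCII-low macrophages by -2.31 (adjusted p = 5.99e-07), and the GM2 activator Gm2a by -1.80 there (adjusted p = 2.47e-07) and -1.37 in MHCII-high macrophages (adjusted p = 2.35e-06). Sumf1, which activates the sulfatases, was lower in MHCII-high macrophages by -1.15 (adjusted p = 0.000403). Hgsnat, a membrane acetyltransferase of heparan sulfate breakdown, and the lysozyme Lyz2 were lower in CCR2+ macrophages by -1.78 (adjusted p = 5.07e-07) and -1.13 (adjusted p = 3.49e-05).

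Between macrophage groups, 3 of these 27 enzymes were higher and 3 lower in CCR2+ than in MHCII-low macrophages, against 2.85% and 2.91% of all genes. Plbd1 and Acp5 were higher by 1.71 (adjusted p = 7.67e-05) and 1.44 (adjusted p = 0.0247), and Hgsnat and Dpp7 lower by -1.20 (adjusted p = 8.92e-05) and -0.93 (adjusted p = 0.00369). Against MHCII-high macrophages Gm2a was higher by 0.59 (adjusted p = 0.0159) and Hgsnat lower by -0.84 (adjusted p = 0.0022). Plbd1 in MHCII-high macrophages also exceeded its MHCII-low level, by 1.34 (adjusted p = 0.00427).

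Of 25 further membrane proteins, 9 were higher and 4 lower in MHCII-low, 6 and 2 in MHCII-high and 5 and 3 in CCR2+ macrophages. The share called in each of the last 2, 32.0%, was near the 31.7% and 33.8% of all genes. The tetraspanin Cd63 was not well above background in monocytes and was at least 88.9-fold higher in MHCII-low (adjusted p = 8.81e-10), at least 82.9-fold in MHCII-high (adjusted p = 1.1e-09) and at least 43.1-fold in CCR2+ macrophages (adjusted p = 4.38e-09). Mcoln2, a channel related to Mcoln1, was at least 4.68-fold higher in MHCII-low macrophages (adjusted p = 0.00103), the sialomucin Cd164 was higher by 1.39 in MHCII-high (adjusted p = 3.12e-05) and the nucleoside transporter Slc29a3 by 1.40 in CCR2+ macrophages (adjusted p = 0.000159). The sialic acid exporter Slc17a5 was lower by -0.63 in MHCII-high (adjusted p = 0.00136) and -0.93 in CCR2+ macrophages (adjusted p = 9.55e-05), Tmem192 by -0.73 in MHCII-high (adjusted p = 0.00578), Ostm1 by -1.04 in CCR2+ (adjusted p = 0.0221) and the amino acid sensor Slc38a9 by -0.71 in MHCII-low macrophages (adjusted p = 0.0469). Slc38a9 was lower on 3 of the 4 slides. Cd63 and Cd164 were lower in CCR2+ than in MHCII-low macrophages, by -1.05 (adjusted p = 0.02) and -0.88 (adjusted p = 0.00607). Slc15a3, a peptide and histidine transporter, was higher there by 0.63 (adjusted p = 0.0305). Gpnmb was in CCR2+ macrophages at least 1.88-fold above the MHCII-low (adjusted p = 0.00328) and at least 1.84-fold above the MHCII-high group (adjusted p = 0.0139).

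Of 13 remaining pump subunits, 1 was higher and 4 lower in MHCII-low, 1 and 6 in MHCII-high and 2 and 4 in CCR2+ macrophages, where more of all genes were also lower than higher. The accessory subunit Atp6ap2 was higher by 0.56 (adjusted p = 0.0115), 0.63 (adjusted p = 0.00623) and 0.61 (adjusted p = 0.00751). Atp6v1b2, of the ATP-cleaving sector, was lower by -1.72 in MHCII-low (adjusted p = 0.00936) and -2.08 in MHCII-high macrophages (adjusted p = 0.0029), with 1 of 4 arrays well above background in each of these groups and 3 of 4 in monocytes. Atp6v0a2 was lower by -0.88 in MHCII-low macrophages (adjusted p = 0.00964), Atp6v0e by -1.13 in MHCII-high (adjusted p = 0.000203) and -1.32 in CCR2+ (adjusted p = 7.25e-05), and Atp6v1f by -0.84 in CCR2+ macrophages (adjusted p = 0.000204). Tcirg1, the a3 form of the large membrane subunit, was higher in CCR2+ macrophages than in monocytes by 0.47 (adjusted p = 0.0256) and than in MHCII-low macrophages by 0.74 (adjusted p = 0.0111).

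Of 14 genes that sort enzymes to the lysosome, 4 were higher and 2 lower in MHCII-low, 2 and 3 in MHCII-high and 4 and 2 in CCR2+ macrophages. The shares called, 42.9%, 35.7% and 42.9%, compare with 32.2%, 31.7% and 33.8% of all genes. The enzyme that makes the mannose 6-phosphate tag showed both directions: its gamma subunit Gnptg was higher by 1.03 in MHCII-low (adjusted p = 5.05e-05) and 1.02 in MHCII-high macrophages (adjusted p = 5.99e-05), while Gnptab, which encodes the catalytic subunits, was lower by -1.52 (adjusted p = 0.00205), -1.58 (adjusted p = 0.00157) and -1.03 in CCR2+ macrophages (adjusted p = 0.0202). The receptor for that tag, Igf2r, was higher in CCR2+ macrophages by 2.31 ± 0.66 (adjusted p = 0.0182), with 1 of 4 monocyte arrays well above background. The adaptor Gga2 was higher by 1.40 in MHCII-low (adjusted p = 0.0373) and 1.42 in CCR2+ macrophages (adjusted p = 0.0341), again with 1 of 4 monocyte arrays well above background. In MHCII-low macrophages Gga2 was higher on 3 of the 4 slides. The retromer subunit Vps29 was higher by 0.62 in MHCII-high macrophages (adjusted p = 0.00109). Sortilin (Sort1), another sorting receptor, was lower by -1.79 (adjusted p = 0.000856), -1.35 (adjusted p = 0.00546) and -1.60 (adjusted p = 0.00195).

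Of 15 genes for TFEB's relatives and the lysosomal scaffold of mTORC1, 4 were higher and 2 lower in MHCII-low, 4 and 3 in MHCII-high and 3 and 3 in CCR2+ macrophages, which is 40.0%, 46.7% and 40.0% called against the same shares of all genes. Mitf, a relative of Tfeb, was higher by 1.46 ± 0.18 (adjusted p = 6.78e-05), 1.26 (adjusted p = 0.000213) and 1.12 (adjusted p = 0.000523). Tfec, another relative, was at least 2.13-fold higher than in monocytes in MHCII-low macrophages (adjusted p = 0.00391), and was lower in CCR2+ than in MHCII-low macrophages by -2.06 ± 0.40 (adjusted p = 0.0108), with 2 of 4 CCR2+ arrays well above background. Fnip1 was higher by 0.66 in MHCII-high (adjusted p = 0.0122) and Rptor, the mTORC1 subunit, by 0.61 in CCR2+ macrophages (adjusted p = 0.0262), with 2 of 4 monocyte arrays well above background. The scaffold subunits Lamtor4 and Lamtor5 were lower, Lamtor4 by -1.03 (adjusted p = 0.000135), -1.04 (adjusted p = 0.000134) and -0.98 (adjusted p = 0.000214), and Lamtor5 by -0.42 (adjusted p = 0.0423), -0.78 (adjusted p = 0.00129) and -0.76 (adjusted p = 0.00153). Of 6 cystatin-type inhibitors of cathepsins, 2 were higher in MHCII-low macrophages, 1 in MHCII-high and 0 in CCR2+ macrophages. Cstb was higher by 0.40 in MHCII-low macrophages (adjusted p = 0.0366). Stfa2l1 was called at an adjusted p of 0.0393 in MHCII-low and 0.0214 in MHCII-high macrophages, but was too dim for a fold.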

How the data were processed

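RNA of 16 sorted samples was measured on one-colour Agilent arrays with 44397 spots each. The deposited values used are the processed signal, an intensity that the authors made with Agilent Feature Extraction 11.5.1.1 (per the submitters' processing notes). Per the file headers it is corrected for background within each array. The 75th percentile was 819 to 1670 and 0 spots were saturated. The deposited table of log2 values, for which the notes name Partek without a step, was not used: 0 of its 16 columns matched best the array under its own label, and 12 matched an array of another group. Text headings in all 16 scanner files were off, so columns were found by content.

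Non-uniform and outlier spots were dropped, spots of a probe averaged, and log2 signals centred on each array's 75th percentile. Probes well above background on at least 4 of 16 arrays were kept, and a gene's brightest kept probe was used. Group means with the slide as a block were fitted to all arrays in limma 3.58.1 (R 4.3.3), with Benjamini-Hochberg adjustment over 22095 genes, and the code was tested on simulated data. Slide and replicate number coincided. Deviations from the group means correlated at 0.137 to 0.637 (median 0.341) in 24 same-slide pairs. In 72 pairs from different slides they correlated at -0.534 to 0.491 (median -0.189). Deviations sum to 0 over the 4 arrays of a group, so the negative median of the different-slide pairs is partly built in. A shared slide and paired samples cannot be told apart here. Each group always sat at 1 position of the slide, and effects of group and position cannot be told apart.

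The genes and lists were chosen with earlier results of these data known. Named with every array were, per comparison, up to 3 called members of largest difference in each direction, plus Cd68, Ctsd, Lamp1, Tfeb and Mcoln1. Arsb and Atp6v0a1 were added after their values were seen. From other lists, up to 2 called genes in each direction were named. Symbols are the array's, updated through RefSeq. Alternatives were other scalings, background correction, filters, probe rules, array weights, fewer groups, no block, and each array left out.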

Additional observations from a re-analysis of the deposited data

Results flagged for a closer look

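Of 60 groups of 4 arrays looked at, over 15 genes, 2 had an array set apart from the other 3 by most of the group's range. Chance alone gives this in about 1 of 20 groups. Ctsf in MHCII-high macrophages was lowest on slide 1, at 1.29 against 2.22 to 2.26 on the other slides. Ctsf also had its lowest value on slide 1 in CCR2+ and MHCII-low macrophages. Mcoln1 in MHCII-low macrophages was highest on slide 4, at 0.70 against 0.33 to 0.37.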

How the results depend on the processing

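Counts against monocytes stayed within 1.5 times of 21, 21, 22 and 25 called genes (MHCII-low, MHCII-high, CCR2+ and their mean) under all alternatives run, and were 18 to 21, 17 to 21, 19 to 23 and 21 to 26 with 1 array left out. The counts between macrophages were not stable. CCR2+ against MHCII-high fell from 3 to 1 without the replicate block (the slide), with normexp, median scaling, quantile normalization or only the groups compared, was 5 with array weights, and was 1 to 1 with 1 array left out. CCR2+ against MHCII-low fell from 12 to 1 without the replicate block, 6 with median scaling and 2 with only the groups compared, and was 4 to 8 with 1 array left out. MHCII-high against MHCII-low fell from 1 to 0 without the replicate block, with normexp, median scaling, quantile normalization, no filter or only the groups compared, and was 0 to 0 with 1 array left out. The slide effect rose from 20 to 32 with median scaling and was 11 to 21 with 1 array left out. Fewer samples or more genes tested lower power by construction, and the other causes were not tested.

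Directions that turned were, with normexp, Tpp1 in MHCII-low macrophages (-0.10), Tpp1 in the mean of the macrophages (-0.16) and Mcoln1 in CCR2+ against MHCII-low (-0.47, on its other probe). With the mean of a gene's probes they were Idua in MHCII-high (0.21), CCR2+ (0.036) and the mean (0.20). With quantile normalization they were Laptm4a in MHCII-high (0.076), Ctss (0.038), Lamp1 (0.00049) and Laptm5 (0.17) in CCR2+, and Lamp1 (0.10) and Laptm5 (0.11) in the mean. Over the 105 called differences of single genes, 37 were lost without the block and 0 with a filter of 8 arrays. The median difference of all genes from monocytes moved by -0.22, -0.20 and -0.25 with normexp and -0.14, -0.16 and -0.16 with median scaling. Slides by scan day were not run, because all slides were scanned on 1 day. With 4 arrays a group, the number of arrays limits the precision, and genes near background, such as Tpp1, have only bounds.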

Other observations

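Probes of the same gene did not always give the same direction. Besides Mcoln1 and Idua, the kept probes differed in sign in at least 1 comparison for Asah1, Gusb, Gaa, Arsb, Ctsa, Ctsc, Cd68 and Atp6v0a1. For Gaa, another probe gave -1.15 in CCR2+ macrophages against monocytes, where the brightest gave 0.99. For Arsb, Ctsa, Ctsc and Atp6v0a1 the differing values were small, 0.02 against MHCII-high macrophages for Arsb and 0.08, -0.06 and 0.07 between MHCII-high and MHCII-low macrophages for the others. For Cd68 the other probe gave -0.12 in CCR2+ macrophages against monocytes. In all, 14 of the 45 genes had more than 1 kept probe.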
